A study of Mus musculus with 12 samples.

Results

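The genes described here are 38 genes of the lysosome, picked by symbol from the 55376 gene symbols of a raw count table. They comprise 9 cysteine proteases, 4 aspartic and serine proteases, 6 glycosidases including the β-galactosidase gene Glb1, 6 genes of lipid breakdown and cholesterol export, 7 genes of membrane proteins or of progranulin, 3 proton pump subunits and 3 transcription factors of the TFEB family. All 38 had a row, and 36 passed a filter of at least 1 count per 1000000 counts of a library (CPM) in at least 4 of the 12 samples, as did 17716 genes in all. RNA-Seq was performed on O1+ CD45- cells sorted by FACS from mouse brain at postnatal day 40, where O1 is a surface lipid of maturing oligodendrocytes and CD45 a surface protein of leukocytes. All mice were C57BL/6. WT mice were compared with Cnp-Cre Jab1fl/fl mice (Jab1 mutants) and with p21-/- Cnp-Cre Jab1fl/fl mice (double mutants), with 4 samples per genotype and 2 brains per sample. In both mutant groups the Cre recombinase is driven by the oligodendrocyte gene Cnp, is active from late precursors onward and also recombines in Schwann cells, so that Jab1 (Cops5) is deleted in these cells. Double mutants also lack p21CIP1 (Cdkn1a), a cell cycle inhibitor induced in senescence, in every cell of the body. Double mutants were not compared with mice lacking p21CIP1 alone, and the labels name no Cre or floxed allele for WT mice.

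Lysosomes are acidic organelles in which proteases, glycosidases and lipases degrade proteins, sugar chains and lipids delivered by endocytosis and autophagy. A vacuolar proton pump keeps the lumen acidic, and TFEB, TFE3 and MITF enter the nucleus and induce lysosomal genes through E-box sequences near their start sites. Senescent cells accumulate lysosomes, and the staining known as senescence-associated β-galactosidase detects the enzyme encoded by Glb1. Oligodendrocytes deliver myelin proteins and lipids to lysosomes, and defects of several of these enzymes and transporters cause myelin disease, whereas microglia, the phagocytes of the brain, are rich in Cd68 and in cathepsins such as Ctss.

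The start sites of the members were read for the letters CACGTG, the E-box that reads the same on both strands, in RefSeq windows of 250 bases before to 50 bases after each start on GRCm38.p6. Of the 38 members, 32 had a window, and 11 of these (34.4%) held CACGTG, against 8.09% of all 27025 genes with a window. The longer form TCACGTGA, which contains CACGTG and also reads the same on both strands, was present in 5 members (15.6%) against 1.12% of all genes. The 11 were Atp6v0d1, Ctsa, Ctsd, Ctsf, Ctsl, Gaa, Gla, Glb1, Lamp1, Lgmn and Mcoln1, and the 5 with the longer form were Atp6v0d1, Ctsa, Ctsd, Gla and Mcoln1. A match is a description of letters and not evidence of binding. Of the windows below, Glb1 (chr9:114400828-114401127, plus strand) is shown as the β-galactosidase gene, Lamp1 (chr8:13158911-13159210, plus strand) for its 4 E-boxes, Ctsd (chr7:142387778-142388077, minus strand) as a member that rose in Jab1 mutants and holds the longer form, and Ctss (chr3:95526536-95526835, plus strand) as the member with the steepest rise, whose window holds no CACGTG. Sequences run 5′ to 3′ in the direction of the gene, and capitals mark CACGTG or TCACGTGA.
Glb1: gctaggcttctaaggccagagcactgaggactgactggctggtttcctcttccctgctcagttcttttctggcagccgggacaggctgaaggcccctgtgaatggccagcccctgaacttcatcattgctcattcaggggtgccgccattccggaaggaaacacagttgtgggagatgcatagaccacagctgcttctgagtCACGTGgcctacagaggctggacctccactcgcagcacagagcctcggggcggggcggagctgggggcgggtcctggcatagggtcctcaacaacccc
Lamp1: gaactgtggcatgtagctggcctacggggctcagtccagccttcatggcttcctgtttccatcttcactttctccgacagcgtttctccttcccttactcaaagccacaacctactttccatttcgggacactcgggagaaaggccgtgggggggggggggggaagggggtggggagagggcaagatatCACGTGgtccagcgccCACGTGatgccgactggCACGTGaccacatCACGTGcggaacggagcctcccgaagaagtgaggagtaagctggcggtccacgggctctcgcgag
Ctsd: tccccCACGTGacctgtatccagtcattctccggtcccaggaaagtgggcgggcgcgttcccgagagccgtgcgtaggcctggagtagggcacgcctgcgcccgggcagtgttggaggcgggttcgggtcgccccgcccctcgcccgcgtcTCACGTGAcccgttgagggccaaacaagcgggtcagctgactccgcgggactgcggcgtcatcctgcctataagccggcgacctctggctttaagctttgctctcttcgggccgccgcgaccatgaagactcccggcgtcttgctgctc
Ctss: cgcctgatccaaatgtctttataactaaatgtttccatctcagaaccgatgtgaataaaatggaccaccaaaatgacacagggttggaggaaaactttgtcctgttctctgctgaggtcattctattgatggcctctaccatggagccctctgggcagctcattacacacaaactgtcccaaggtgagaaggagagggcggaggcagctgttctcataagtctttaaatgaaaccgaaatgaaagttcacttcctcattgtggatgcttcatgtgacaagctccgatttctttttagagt
In Glb1 the E-box began 48 bases before the start site, in Ctsd the pair began 245 and 98 bases before it, and in Lamp1 all 4 lay within the last 61 bases before it.

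Total counts per sample were 61485556 to 153495112, so 1 CPM was at least 61.5 counts and the spread between samples, rather than counting error, set the precision. The count tables do not show which exon was read, so they do not check the deletions directly. Cops5 was at 139, 48.4, 136 and 107 CPM in WT replicates 1, 3, 5 and 6, at 86.1, 65.3, 63.8 and 42.5 CPM in Jab1 mutants 1 to 4, and at 47.8, 45.6, 87.6 and 51.2 CPM in double mutants 1, 2, 3 and 5, and passed the test in neither mutant group (adjusted p = 0.349 and 0.424). Cdkn1a was at 17.0 to 89.0 CPM in WT, 366 to 602 CPM in Jab1 mutants and 63.3 to 106 CPM in double mutants, below every Jab1 mutant but not below WT. The label of the sorted cells was checked against 12 markers of mature oligodendrocytes, which summed to 49821 to 119584 CPM in WT, 8665 to 36394 CPM in Jab1 mutants and 17027 to 55629 CPM in double mutants. None of the 12 was at 0 in any genotype, and 8 of them fell in Jab1 mutants against WT. The 12 include Cnp, the gene that drives Cre in both mutant groups. Cnp was at 4955 to 14140 CPM in WT, 212 to 1661 CPM in Jab1 mutants and 827 to 2598 CPM in double mutants. An effect of the Cre allele on Cnp reads was not tested. A list of 20 microglia markers summed to 225 to 291 CPM in WT and 1232 to 2668 CPM in Jab1 mutants, where 17 of 20 were called higher and none was at 0. In double mutants 1, 2, 3 and 5 this sum was 426, 1006, 16935 and 2048 CPM. Ptprc, which encodes the CD45 of the gate, was at 0 to 1.57 CPM in WT, 31.7 to 100 CPM in Jab1 mutants and 3.21 to 97.9 CPM in double mutants. Markers of other cells were also called higher in Jab1 mutants, in 4 of 6 for endothelial cells, 3 of 5 for mural cells, 2 of 5 for choroid plexus, 1 of 6 for oligodendrocyte precursors and 1 of the 4 border macrophage markers tested. Of all genes tested, 5.19% were called higher and 2.46% lower in Jab1 mutants against WT. Nothing is read from a single call in a list. Choroid plexus markers summed to 305 to 4193 CPM in WT and 6478 to 22930 CPM in Jab1 mutants, more than the microglia markers. Endothelial markers summed to 246 to 584 CPM in WT and 582 to 3742 CPM in Jab1 mutants. Astrocyte markers summed to 5257 to 11831 CPM in WT and 2932 to 7464 CPM in Jab1 mutants.

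Double-mutant replicate 3 stood apart for the lysosomal genes. It had the highest value of all 12 samples in 25 of the 36 members tested and the highest of its genotype in 29. The 38 members summed to 33182 CPM in that sample, against 10743, 10274 and 10163 CPM in double mutants 1, 2 and 5. In WT the sum was 8718, 10326, 12553 and 8594 CPM in replicates 1, 3, 5 and 6, and in Jab1 mutants 9477, 10778, 6762 and 8088 CPM. Outside double-mutant replicate 3, the summed level of the genes thus overlapped between all 3 genotypes. The same sample had the highest microglia marker sum given above. Its sums of monocyte and neutrophil markers (136 CPM) and of border macrophage markers (56.5 CPM) were also the highest of all 12 samples. So was its choroid plexus sum (23239 CPM), close to the 22930 CPM of Jab1 mutant 3. Endothelial and mural markers were highest in double mutant 5 (3832 and 1591 CPM). The part of all these markers in the lysosomal values of double-mutant replicate 3 was not tested. For the fold changes of the members in double mutants, values without that replicate are given beside the main ones. DESeq2 was run with all samples only.

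**Figure D1:**
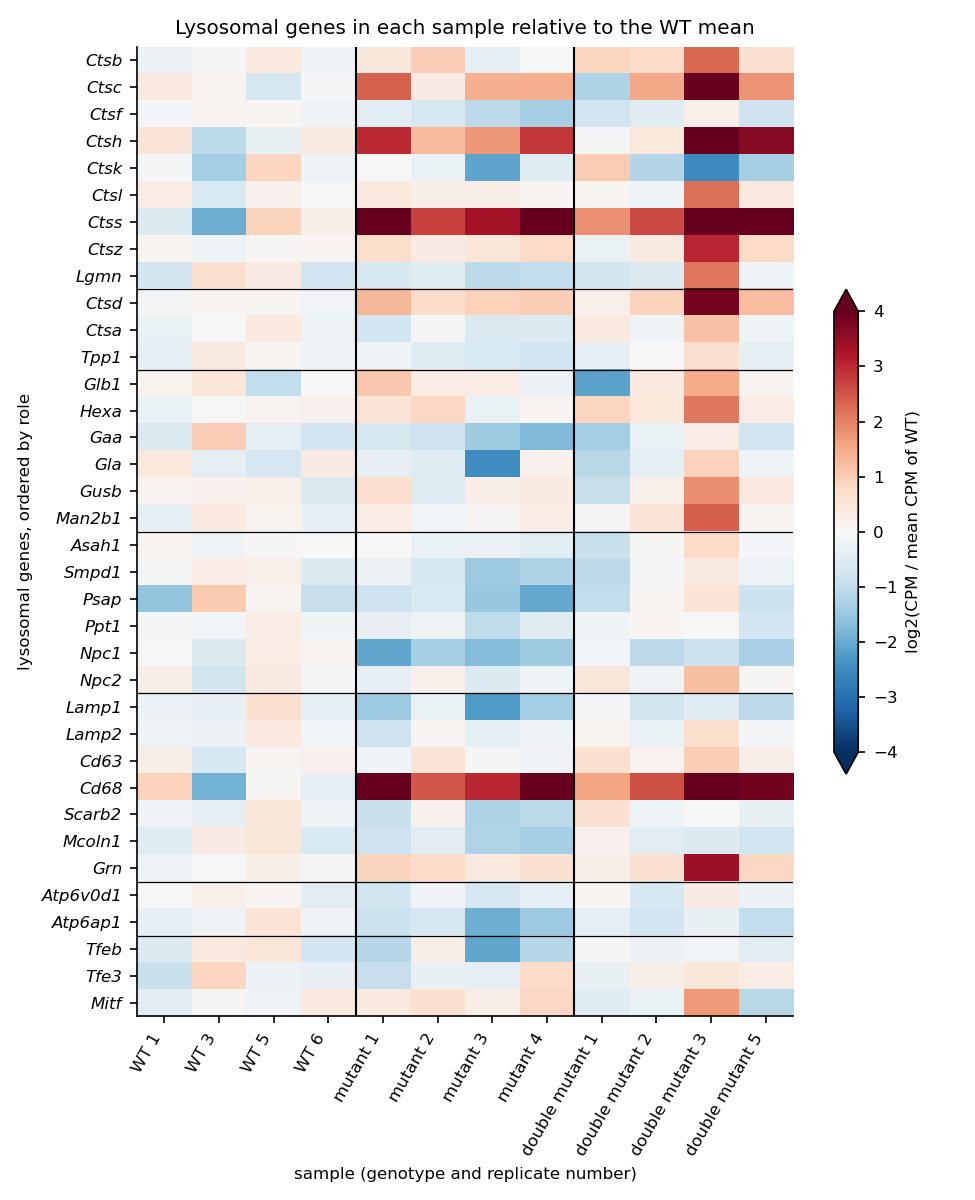
Each cell is the log2 ratio of a sample's CPM to the mean CPM of the 4 WT samples, for the 36 members that passed the filter (rows, ordered by role) and the 12 samples (columns), with colours saturating at -4 and 4. Double-mutant replicate 3 is the column with the most red, and Ctss, Cd68, Ctsd and Grn are the rows above the WT mean in all 8 mutant samples.

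Per kilobase of exon, the levels in WT were led by Lamp1, the main glycoprotein of the lysosomal membrane, at 806 ± 304 (SD, n = 4) CPM per kilobase. Next came Cd63, a tetraspanin of late endosomes, at 551 ± 139, Psap, the precursor of the saposins, at 298 ± 231, Atp6ap1, an accessory subunit of the proton pump, at 268 ± 83.0, and Ctsd at 239 ± 18.0 CPM per kilobase. The sample ranges of Lamp1 and Cd63 overlapped, as did those of Cd63 and Psap and of Psap and Atp6ap1. These genes were read in the same samples, and differences between neighbours within samples were not tested. Glb1 was 31st of 38 in WT at 12.1 ± 4.53 CPM per kilobase, with Gusb just above it at 13.1 ± 2.94. Ctss was 28th in WT at 15.1 ± 10.4 and 5th in Jab1 mutants at 244 ± 138 CPM per kilobase. Lamp1 was 3rd in Jab1 mutants, behind Cd63 and Ctsd. The lowest members were Ctse, an aspartic protease of immune and gastric cells, and Atp6v0d2, a pump subunit of macrophages and osteoclasts, both of which failed the filter. Ctse had at most 190 counts in WT and Jab1 mutants, was at 0 counts in 3 WT samples and 1 Jab1 mutant, and reached 520 and 805 counts in double mutants 1 and 3. Atp6v0d2 had 0 to 27 counts in every sample but double-mutant replicate 3, which had 123.

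The first comparison asked which lysosomal genes changed when Jab1 was deleted in oligodendrocytes. Of the 36 members tested, 5 rose in Jab1 mutants against WT (Ctss, Cd68, Ctsh, Ctsc and Ctsd) and 1 fell (Npc1), while the other 30, including Glb1, did not pass the test. The share of members called higher was 13.9%, against 5.19% of all genes tested, and the share called lower was 2.78%, against 2.46%. Among the members, 16 had a fold change above 0 and 20 below 0, with a median log2 fold change of -0.13, against 0.02 over all genes. The samples of both genotypes did not overlap in 6 members that were higher (16.7%, against 8.73% of all genes) and 4 that were lower (11.1%, against 9.01%). With DESeq2, 7 members were called higher, among them Ctsz and Grn in addition, and 3 lower (Npc1, Ctsf and Atp6ap1), where 9.52% and 5.66% of all genes were called.

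**Figure D2:**
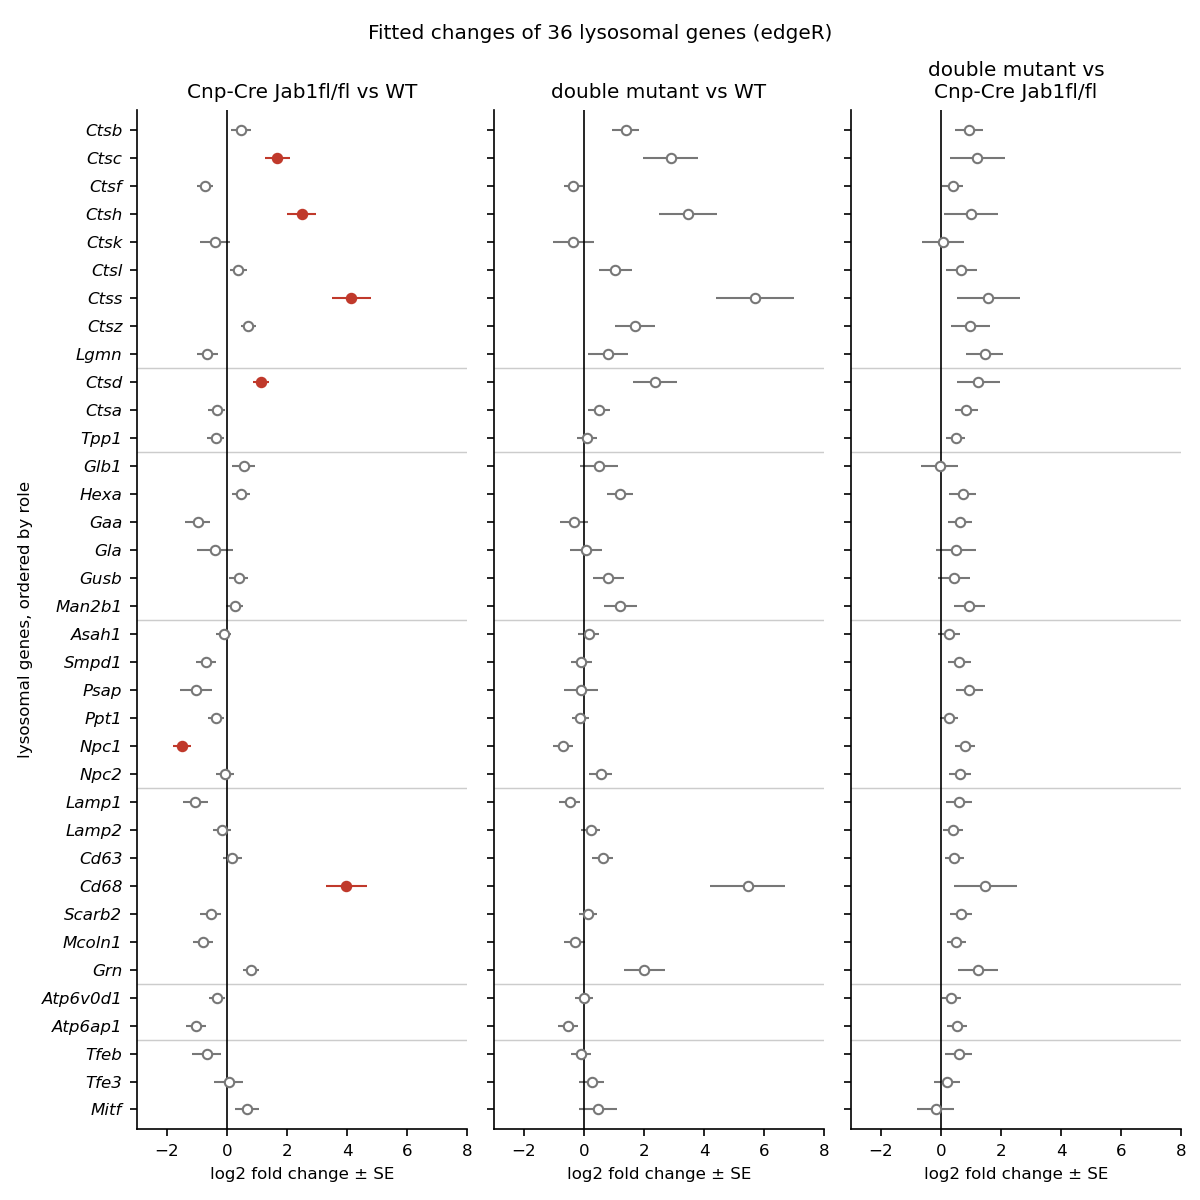
Points are edgeR log2 fold changes and bars their SE for the 36 members that passed the filter, ordered by role, in the 3 comparisons (panels), and filled red points passed the threshold of 0.05 on the adjusted p. In the left panel 5 members rose and Npc1 fell, and in the other panels no member passed.

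Among the 9 cysteine proteases, 3 rose. Ctss encodes cathepsin S, which microglia and macrophages use to process antigens and which stays active at neutral pH. Ctss was at 14.2, 5.32, 38.04 and 24.5 CPM in WT and at 475, 138, 204 and 508 CPM in Jab1 mutants. The lowest mutant was above the highest WT sample, and the log2 fold change was 4.14 ± 0.65 (SE, adjusted p = 0.00491), a 17.7-fold rise. Ctsh, an aminopeptidase, was at 32.2, 10.6, 18.3 and 28.5 CPM in WT and 176, 53.5, 73.9 and 158 CPM in Jab1 mutants, without overlap. Its log2 fold change was 2.49 ± 0.48 (adjusted p = 0.0118). Ctsc, a dipeptidyl peptidase that activates serine proteases of immune cells, was at 28.9, 24.4, 13.9 and 21.7 CPM in WT and 114, 27.9, 59.2 and 61.3 CPM in Jab1 mutants, where replicate 2 lay within the WT range. Its log2 fold change was 1.68 ± 0.43 (adjusted p = 0.0362). The 6 others had log2 fold changes of -0.73 (Ctsf, adjusted p = 0.142) to 0.71 (Ctsz, adjusted p = 0.127). Ctsf was lower in every Jab1 mutant than in every WT sample, at 141 to 260 against 323 to 387 CPM, and Ctsz, a carboxypeptidase, was higher in every one, at 251 to 350 against 175 to 212 CPM. Ctsb, a broadly acting cysteine protease, did not pass (log2 fold change 0.47 ± 0.34, adjusted p = 0.466), nor did Ctsl (0.38 ± 0.28, adjusted p = 0.480), Ctsk (-0.41 ± 0.50, adjusted p = 0.695) or Lgmn, an asparagine endopeptidase (-0.65 ± 0.35, adjusted p = 0.311). Ctss and Ctsk are neighbours on chromosome 3, from 95526786 to 95556403 and from 95499256 to 95509362 on GRCm38, both on the plus strand. Ctsk, the collagen-degrading cathepsin of bone, was at 11.1 to 48.0 CPM in Jab1 mutants and 18.7 to 86.8 CPM in WT, so the groups overlapped at Ctsk and not at Ctss.

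Of the other proteases, Ctsd rose. It encodes cathepsin D, the main aspartic protease of the lysosome, and was at 484, 543, 542 and 469 CPM in WT and 1289, 839, 968 and 1011 CPM in Jab1 mutants. All 4 Jab1 mutants were above all 4 WT samples, and the log2 fold change was 1.13 ± 0.28 (adjusted p = 0.0321), or 2.19-fold. Of the exon bases of Ctsd, 31.5% are shared with the gene model Gm49369 on the same strand, which the counting could have split. Overlaps with genes on the other strand covered 28.2% of Ctsl, which also overlaps Gm49230 on its own strand, 16.3% of Ctsb, 13.5% of Ctsa, 7.9% of Lamp1 and 3.7% of Npc1. Glb1 shares 6.9% of its exon bases with Tmppe on the same strand, and 11.1% of the 50-base stretches of Cd63 also occur in Cd63-ps. Ctsa, the carboxypeptidase that protects β-galactosidase and neuraminidase in a complex, had a log2 fold change of -0.34 ± 0.29 (adjusted p = 0.538), and Tpp1, a tripeptidyl peptidase, of -0.38 ± 0.28 (adjusted p = 0.474).

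None of the 6 glycosidases passed the test. Glb1 (chromosome 9, 114401076 to 114474898 on GRCm38) was at 31.8, 40.6, 14.5 and 29.0 CPM in WT and 60.9, 36, 35.3 and 24.6 CPM in Jab1 mutants. One Jab1 mutant exceeded the WT range and the other 3 lay inside it. The log2 fold change was 0.55 ± 0.39 (adjusted p = 0.458), and without single samples it ranged from 0.26 to 0.74. Hexa (0.47 ± 0.29), Gusb (0.39 ± 0.32), Man2b1 (0.26 ± 0.28), Gla (-0.40 ± 0.59) and Gaa (-0.98 ± 0.43), which cleave gangliosides, glucuronides, mannosides, glycosphingolipids and glycogen, had adjusted p-values of 0.205 to 0.750.

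All 6 genes of lipid breakdown and cholesterol export had log2 fold changes below 0, except that Npc2 was at 0.01 with a mean of at least 10 CPM as the filter and up to 0.06 without a single sample and Asah1 at 0.03 with the replicate number as a block, and Npc1 fell. NPC1 moves cholesterol out of the lysosome across its membrane. Npc1 was at 201, 135, 247 and 218 CPM in WT and 47.4, 77.2, 60.4 and 74.2 CPM in Jab1 mutants, so that every Jab1 mutant was below every WT sample. Its log2 fold change was -1.51 ± 0.30 (adjusted p = 0.0124), 2.85-fold lower. Npc2, the soluble partner that hands cholesterol to NPC1, was at 166 to 354 CPM in WT and 190 to 315 CPM in Jab1 mutants (-0.07 ± 0.31, adjusted p = 0.924). Psap, whose saposins help degrade the sphingolipids of myelin, was at 276, 1684, 883 and 428 CPM in WT and 465, 530, 283 and 199 CPM in Jab1 mutants (-1.04 ± 0.53, adjusted p = 0.282). The WT samples of Psap spread over a wider range than the Jab1 mutants and overlapped with 3 of the 4. Smpd1 (acid sphingomyelinase, -0.69 ± 0.33), Ppt1 (palmitoyl-protein thioesterase, -0.36 ± 0.27) and Asah1 (acid ceramidase, -0.11 ± 0.25) had adjusted p-values of 0.245 to 0.849.

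Of the 7 genes of membrane proteins and progranulin, Cd68 rose. CD68 is a heavily glycosylated membrane protein of lysosomes and endosomes, used as a marker of microglia and macrophages. Cd68 was at 9.73, 1.36, 5.28 and 4.02 CPM in WT and 81.0, 28.2, 41.5 and 142 CPM in Jab1 mutants, a log2 fold change of 3.97 ± 0.68 (adjusted p = 0.0069) without overlap. Grn, which encodes the secreted and lysosomal progranulin, was at 156 to 210 CPM in WT and 237 to 334 CPM in Jab1 mutants without overlap, but did not pass (0.79 ± 0.26, adjusted p = 0.0871). Lamp1 was at 1520, 1433, 2810 and 1423 CPM in WT and 652, 1497, 375 and 699 CPM in Jab1 mutants (-1.05 ± 0.43, adjusted p = 0.172). Jab1 mutant 2 lay inside the WT range of Lamp1 and the other 3 below it, and without that sample Lamp1 was called lower (-1.51). Lamp2 (-0.16), Cd63 (0.18), Scarb2 (the receptor of β-glucocerebrosidase, -0.54) and Mcoln1 (a calcium channel of the lysosomal membrane, -0.80) had adjusted p-values of 0.176 to 0.809. The pump subunit Atp6ap1 was at 477, 529, 882 and 525 CPM in WT and 332, 374, 156 and 223 CPM in Jab1 mutants. The groups of Atp6ap1 did not overlap, with a log2 fold change of -1.04 ± 0.34 and an adjusted p of 0.0944. Atp6v0d1, the subunit found in most cells, had -0.33 ± 0.28 (adjusted p = 0.534). None of the TFEB family passed, with log2 fold changes of -0.68 ± 0.47 for Tfeb (adjusted p = 0.447), 0.06 ± 0.48 for Tfe3 (adjusted p = 0.962) and 0.66 ± 0.40 for Mitf (adjusted p = 0.375).

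**Figure D3:**
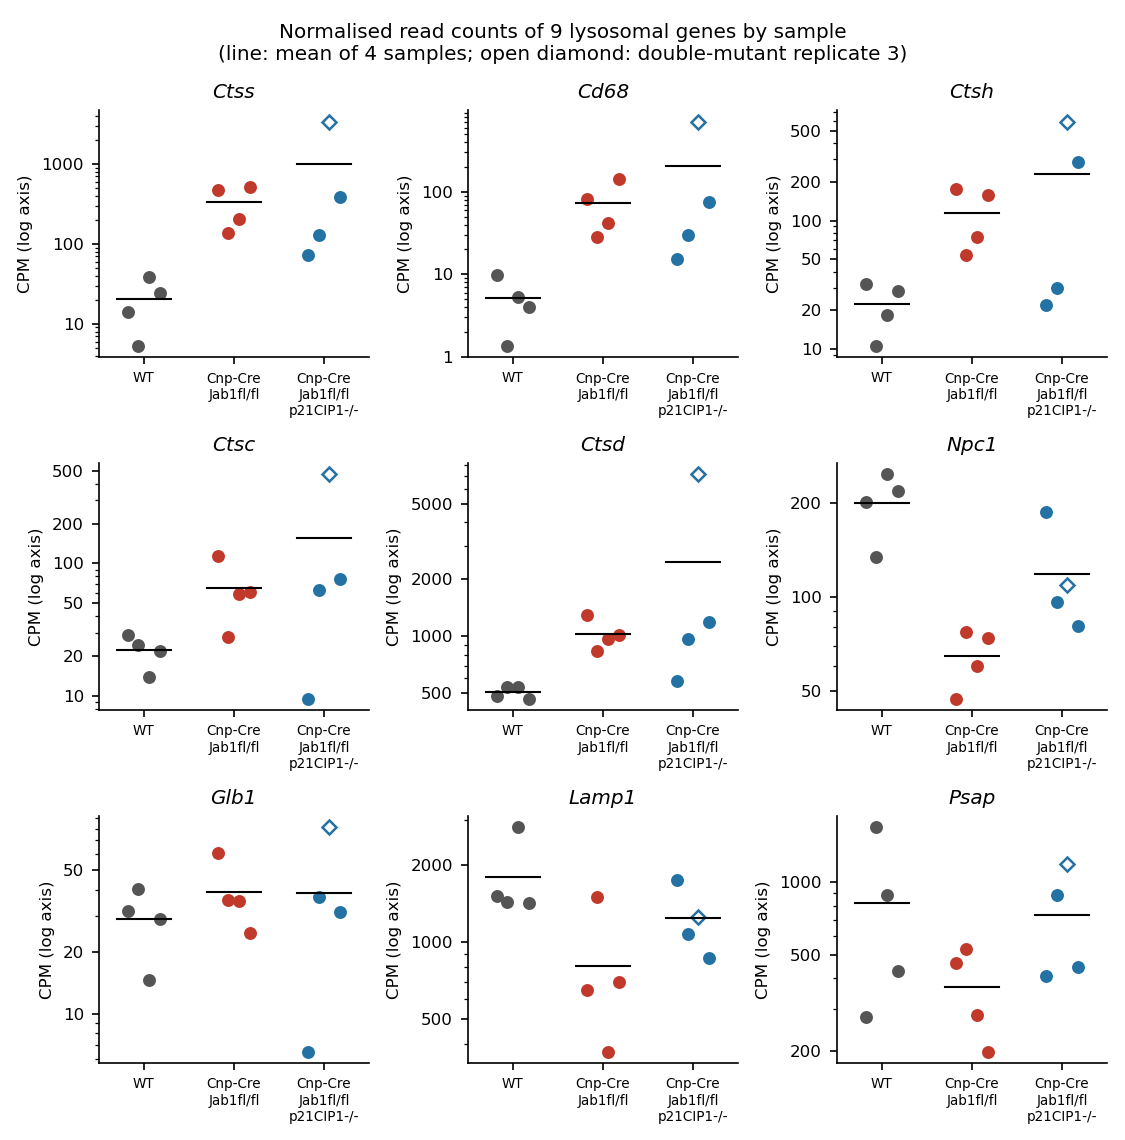
Each point is the CPM of 1 sample (log axis) of 9 members in the 3 genotypes, horizontal lines are the means of 4 samples, and the open diamond is double-mutant replicate 3. Ctss, Cd68, Ctsh and Ctsd were higher and Npc1 lower in all 4 Jab1 mutants than in all 4 WT samples, while Glb1, Lamp1 and Psap overlapped.

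Of the 38 members, 8 are known as abundant in microglia and macrophages (Ctsc, Ctsh, Ctss, Ctsz, Lgmn, Cd68, Grn and Atp6v0d2). Of the 7 of these that were tested, 4 rose in Jab1 mutants, where 5.19% of all genes were called higher, and their median log2 fold change was 1.68. The split was made with results of these data known and is a description. Of the 29 others tested, 1 rose (Ctsd) and 1 fell (Npc1), with a median of -0.34. Ctsd was placed among the others, although in double-mutant replicate 3 it was 6.01 times the next highest double mutant, as was Grn of the 8 genes. The 8 genes summed to 513, 552, 617 and 522 CPM in WT and 1573, 875, 943 and 1548 CPM in Jab1 mutants, so all Jab1 mutants were above WT. The 30 other members summed to 8205, 9773, 11936 and 8072 CPM in WT and 7905, 9903, 5819 and 6540 CPM in Jab1 mutants, which overlapped. The microglia markers given above moved with the first of these sums and the mature oligodendrocyte markers fell in the same samples, and their part in the changes of the lysosomal genes was not tested. In RNA from sorted cells in bulk, more or fewer cells of a type and more or less of a transcript per cell cannot be told apart.

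**Figure D4:**
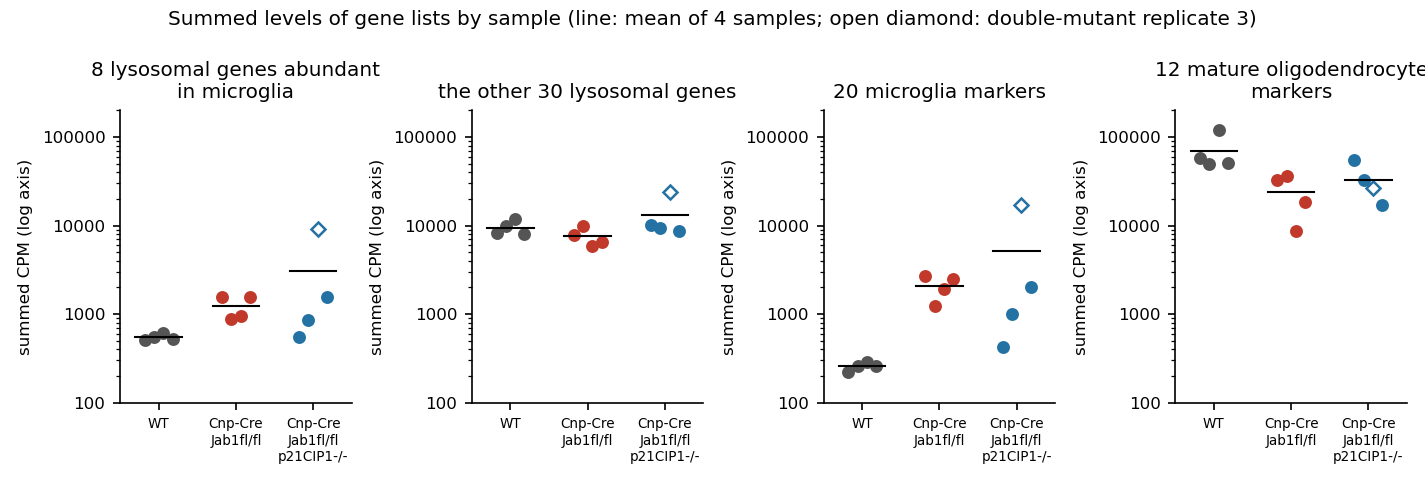
Each point is the summed CPM of a gene list in 1 sample (log axis, the same in all panels), lines are the means of 4 samples, and the open diamond is double-mutant replicate 3. The 8 lysosomal genes abundant in microglia and the 20 microglia markers were higher in all 4 Jab1 mutants than in WT, whereas the other 30 lysosomal genes overlapped and the oligodendrocyte markers were lower in all 4.

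Call stability differed between the 6 members called in Jab1 mutants. Ctss, Cd68, Ctsh and Npc1 were called in all 8 fits that each left out 1 sample. Ctsd was called in 2 of the 8 (without Jab1 mutant 2 and without WT replicate 3) and Ctsc in 1 (without Jab1 mutant 2), with log2 fold changes of 1.01 to 1.22 for Ctsd and 1.29 to 1.93 for Ctsc. In 1 fit over all 12 samples in which all genotypes shared the estimate of the spread, only Ctss and Npc1 of the members were called.

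The second comparison asked whether the members also differed from WT where p21CIP1 was deleted in addition. With edgeR, 0 of 36 members were called in double mutants against WT, where 0.175% of all genes were called higher and 0.0169% lower, while 10 members had an unadjusted p below 0.05, all of them higher. The share of all genes at an unadjusted p below 0.05 is not given here, so nothing is read from such counts of members. DESeq2 called 4 members higher (Ctsb, Ctsh, Ctss and Cd68), against 3.74% of all genes, and 0 lower, against 1.12%, and gave no adjusted p for 2 members (Grn and Man2b1). The median log2 fold change of the members was 0.37, against 0.00 over all genes, and 0.00 without double-mutant replicate 3, when 0 members were called by edgeR and 5 had an unadjusted p below 0.05 in the higher and 1 in the lower direction. The genotypes did not overlap in 6 members that were higher (16.7%, against 4.01% of all genes) and 0 that were lower (against 4.13%).

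The 6 members without overlap were Ctsb, Ctsd, Ctss, Cd68, Hexa and Grn. Ctss was at 72.8, 129, 3399 and 383 CPM in double mutants 1, 2, 3 and 5, each above the highest WT value of 38.04 CPM. Its log2 fold change was 5.70 ± 1.30 (adjusted p = 0.109), and 3.30 without replicate 3, and it was called when replicate 1 was left out. Cd68 was at 15.2, 29.8, 710.5 and 74.3 CPM, with a log2 fold change of 5.45 ± 1.26 (adjusted p = 0.117) that was 3.01 without replicate 3. Replicate 3 thus had 8.88 times the Ctss and 9.56 times the Cd68 of the next highest double mutant. Ctsd was at 584, 969, 7164 and 1192 CPM (log2 fold change 2.37 ± 0.74, adjusted p = 0.222), and 0.90 without replicate 3. Ctsb was at 1819, 1716, 4901 and 1528 CPM, all above the WT range of 852 to 1299 CPM (1.39 ± 0.44, adjusted p = 0.228, and 0.81 without replicate 3). Without replicate 3 the double mutants of Ctsb were at 1687 ± 148 CPM (SD, n = 3), so its 3 other samples were close to each other. Hexa was at 241, 177, 575 and 164 CPM against 110 to 149 CPM in WT (1.19 ± 0.43, adjusted p = 0.288, and 0.60 without replicate 3). Grn was at 212, 273, 1932 and 321 CPM (2.01 ± 0.68, adjusted p = 0.258, and 0.63 without replicate 3).

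Other members of the microglia group were divided between the double mutants. Ctsh was at 21.8, 30.04, 592 and 286 CPM, with replicates 1 and 2 inside the WT range and replicates 3 and 5 above it (3.47 ± 0.97, adjusted p = 0.189, and 2.40 without replicate 3). Ctsc was at 9.55, 63.1, 470.4 and 76.8 CPM, lowest of all 12 samples in replicate 1 and highest in replicate 3 (2.89 ± 0.92, adjusted p = 0.230, and 1.21 without replicate 3). The 8 genes abundant in microglia summed to 558, 851, 9205 and 1577 CPM in double mutants 1, 2, 3 and 5, and the microglia markers had the same order of samples. Replicate 1, the lowest of both sums, was inside the WT range for the 8 genes.

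For Glb1, double-mutant replicate 1 at 6.53 CPM was below every other sample and replicate 3 at 81.2 CPM above every other sample, with replicates 2 and 5 at 37.0 and 31.3 CPM. Its log2 fold change against WT was 0.50 ± 0.62 (adjusted p = 0.789), and -0.17 without replicate 3. Npc1 was at 187, 96.4, 109 and 80.7 CPM in double mutants, 3 of them below the WT range, with a log2 fold change of -0.71 ± 0.33 (adjusted p = 0.424), and -0.67 without replicate 3. Lamp1 (-0.48 ± 0.36), Psap (-0.09 ± 0.57) and Atp6ap1 (-0.53 ± 0.32) were not called either, and without replicate 3 had -0.49, -0.44 and -0.64. The TFEB family had log2 fold changes of -0.10 to 0.47 and adjusted p-values of 0.806 to 0.933, and log2 fold changes of -0.54 to 0.17 without replicate 3.

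The third comparison set double mutants against Jab1 mutants and so asked for a difference that came with the loss of p21CIP1. With edgeR, 0 of 36 members were called, as were 0% of all genes in either direction, and 3 members had an unadjusted p below 0.05 (Ctsa, Npc1 and Lgmn), all higher. Here too no share of all genes is set beside the unadjusted count, and nothing is read from it. Cdkn1a, the gene deleted in double mutants, was not called by edgeR either (log2 fold change -2.35 ± 0.32, adjusted p = 0.0916). DESeq2 called Cdkn1a lower (adjusted p = 1.57e-10). The absence of edgeR calls in this comparison therefore does not show that the members were unchanged. Without double-mutant replicate 3 the log2 fold change went from 1.46 to 0.26 for Lgmn and from 0.84 to 0.47 for Ctsa, and from 0.81 to 0.87 for Npc1. DESeq2 called 0 of the 29 members for which it gave an adjusted p, and gave none for Ctsd, Ctss, Cd68, Lgmn, Man2b1, Grn and Mitf, with 0.113% of all genes called higher and 0.378% lower. The median log2 fold change of the members was 0.62, against 0.02 over all genes, and 34 of 36 were above 0. Without double-mutant replicate 3 the median was 0.18 and 23 of 36 were above 0, with 11 members changing sign. The sign turned for Ctss (1.57 to -0.80), Cd68 (1.48 to -0.92), Ctsc (1.21 to -0.45), Ctsd (1.25 to -0.21), Ctsh (0.99 to -0.05), Ctsz (0.98 to -0.27), Grn (1.23 to -0.14), Ctsl (0.68 to -0.17), Gusb (0.43 to -0.32), Asah1 (0.27 to -0.06) and Gla (0.49 to -0.03). Of the 7 microglia group members tested, 7 were above 0 with all samples and 1 without replicate 3. The microglia markers turned in the same way, from 17 of 20 above 0 to 1 of 20, with medians of 1.35 and -1.0. Their part in the sign of the lysosomal genes was not tested.

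Npc1 was the only member without overlap between double mutants and Jab1 mutants, higher in double mutants (2.78% of members, against 1.35% of all genes), and 0 members were lower without overlap (against 1.91%). Its 4 double mutants, at 80.7 to 187 CPM, lay above the highest Jab1 mutant at 77.2 CPM, with a log2 fold change of 0.81 ± 0.33, an unadjusted p of 0.0320 and an adjusted p of 0.962. Replicate 3 was not extreme for Npc1. For Glb1 the log2 fold change was -0.04 ± 0.61 (adjusted p = 1.0), and -0.70 without replicate 3. Each genotype entered a pair of these comparisons, so they are not independent of each other.

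The promoters described above were set beside these changes. Of the 11 members with CACGTG, 1 rose in Jab1 mutants (Ctsd) and the median log2 fold change was -0.40. Of the 21 members with a window but without CACGTG, 3 rose (Ctss, Cd68 and Ctsc) and the median was 0.06. With 5.19% of all genes called higher and few members in each set, nothing is read from the difference between these counts. In double mutants against WT the medians were 0.08 with CACGTG and 0.47 without, and -0.24 and 0.15 when replicate 3 was left out, with 0 called in either set. Lamp1, with 4 E-boxes, and Glb1, with 1, were in the set with CACGTG and were not called in any of the 3 comparisons.

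Lysosomal and autophagy genes outside the 38 members were taken from 7 lists of 115 genes in all, of which 114 were tested. In Jab1 mutants against WT, edgeR called 6 higher and 3 lower, and the median log2 fold change was -0.26. With edgeR the shares, 5.26% and 2.63%, were near those of all genes tested (5.19% and 2.46%). With DESeq2, 5.26% were called higher and 12.3% lower, where 9.52% and 5.66% of all genes were called. The genotypes did not overlap in 5.26% that were higher and 17.5% that were lower, against 8.73% and 9.01% of all genes. Among 27 other hydrolases, Dnase2a, which degrades DNA, rose (1.74 ± 0.35, adjusted p = 0.0149), while Sgsh, a heparan sulfatase, had -1.29 ± 0.40 (adjusted p = 0.0789). Among 21 other membrane proteins and transporters, Laptm5 (3.66 ± 0.50, adjusted p = 0.00287) and Slc11a1 (4.93 ± 0.79, adjusted p = 0.00539), a membrane protein and an iron transporter of leukocytes and phagocytes, rose, and Abca2, a lipid transporter of oligodendrocytes, fell (-2.54 ± 0.47, adjusted p = 0.00992). Abca2 was at 309, 1175, 478 and 294 CPM in WT and 75.2, 96.6, 68.9 and 117 CPM in Jab1 mutants, without overlap. Of 17 other pump subunits, 1 rose. This was Tcirg1, the a3 subunit found in osteoclasts and phagocytes, which was at 70.3, 130, 105 and 69.5 CPM in WT and 358, 231, 582 and 338 CPM in Jab1 mutants (2.14 ± 0.37, adjusted p = 0.00754), while Atp6v0e2 (-1.10 ± 0.39, adjusted p = 0.119) and Atp6ap2 (-0.74 ± 0.31, adjusted p = 0.176) did not pass. In double mutants Tcirg1 was at 80.8, 94.8, 83.5 and 37.6 CPM, all below every Jab1 mutant, and replicate 3 lay between the others. Its log2 fold change of double mutants against Jab1 mutants was -2.42 ± 0.41 and did not pass with edgeR (adjusted p = 0.248), whereas DESeq2 called it lower, and without single samples, replicate 3 among them, it was -2.60 to -2.11.

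Of 10 genes that deliver hydrolases to the lysosome, Gnptab, which makes the mannose 6-phosphate tag, fell (-1.53 ± 0.39, adjusted p = 0.0360), while Gga3 (-1.02 ± 0.36, adjusted p = 0.117) and Gnptg (-0.67 ± 0.40, adjusted p = 0.359) did not pass. A further list held genes of mTORC1 and the Rag proteins, which hold TFEB in the cytoplasm, and of their regulators, such as Tsc1 and Flcn. Of its 17 tested genes none passed, with Tsc1 (-1.04 ± 0.30, adjusted p = 0.0592) and Rragb (-1.08 ± 0.33, adjusted p = 0.0730) nearest to the threshold and Flcn at -0.64 ± 0.35 (adjusted p = 0.319). Of 18 autophagy genes, Wipi1, which binds the lipid of forming autophagosomes, fell (-1.10 ± 0.29, adjusted p = 0.0410), while Atg16l1 (-0.92 ± 0.30, adjusted p = 0.0944) and Atg9a (-1.59 ± 0.52, adjusted p = 0.0937), 41.8% of whose exon bases overlap other genes, did not pass. Of 4 cathepsin inhibitors, Cst7, an inhibitor found in activated microglia, rose. Cst7 was at 0, 0.0810, 0 and 1.75 CPM in WT and 61.5, 12.3, 23.6 and 51.3 CPM in Jab1 mutants (adjusted p = 0.0334), while Cstb (0.17 ± 0.46, adjusted p = 0.874) and Cst6 (0.61 ± 2.0, adjusted p = 0.899) did not pass. In double mutants Cst7 was at 0, 17.3, 134 and 53.1 CPM, with 0 counts again in replicate 1. In fits that left out 1 sample, Dnase2a, Laptm5, Slc11a1, Abca2 and Tcirg1 were called in all 8, and Gnptab, Wipi1 and Cst7 in 2. With edgeR, none of the 114 genes was called in double mutants against WT or against Jab1 mutants. There, 8 had an unadjusted p below 0.05 in the higher and 4 in the lower direction against WT, and 7 and 1 against Jab1 mutants. Without double-mutant replicate 3 these counts were 6 and 2 against WT and 4 and 2 against Jab1 mutants. No share of all genes is set beside these unadjusted counts, and nothing is read from them.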

How the data were processed

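RNA-Seq of 12 samples (4 per genotype, as the labels give them) was used. Per the methods of the study, the authors amplified RNA with SMART-Seq v4, used Trimmomatic 0.32 on the reads and STAR 2.5.3a for alignment (GRCm38), and counted by gene with featureCounts on GENCODE basic annotations. The values deposited by the authors are raw counts per gene symbol. Use of strand and the treatment of reads with several matches are not given in the sources used here, so overlapping genes are uncertain. CPM with TMM factors and edgeR quasi-likelihood tests (edgeR 4.0.16, R 4.3.3) were computed here, each test on the 8 samples compared. Genes entered if 4 or more of the 12 samples reached 1 CPM, which left 17716, and p-values were adjusted over all of these by Benjamini-Hochberg with a threshold of 0.05. The SE is the absolute log2 fold change divided by the square root of the F statistic. CPM per kilobase used merged GENCODE exon lengths, and motifs were read in RefSeq windows of GRCm38.p6.

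All 38 members are described, and of each pathway list the 3 genes with the smallest unadjusted p in Jab1 mutants against WT are named, except 1 gene that is not reported here. The members and gene lists were chosen with earlier results of these data known. Alternatives were DESeq2 1.42.0, RLE and upper-quartile factors, limma-voom (limma 3.58.1) with sample weights, no filter, a stricter filter (mean CPM of 10 or more), a joint fit of all 12 samples, the replicate number as a block, and each sample left out in turn. On simulated counts with 200 of 17716 genes changed by 3 on the log2 scale, edgeR recovered 89.5% (2.2% of its calls false) in Jab1 mutants against WT, 91% (6.2%) in double mutants against WT and 68% (3.5%) in double mutants against Jab1 mutants, and DESeq2 recovered 98%, 97.5% and 89.5% with 27.9%, 33% and 33.2% of its calls false. The changed genes had a mean of at least 10 CPM. Each gene was drawn on its own, without a library in which many genes shift together. These rates do not give the power for smaller changes, which were not simulated. The 18 pairs of samples within a genotype differed by more than counting noise (chi-square of 211 or more for each degree of freedom), so no library was taken as deposited in duplicate. Each sample pools 2 brains, and p-values measure the spread between these pools.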

Additional observations from a re-analysis of the deposited data

Results flagged for a closer look

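Of 117 genotype groups (38 members and their sum, each in 3 genotypes), 22 held a sample far from the other 3 by Dixon's test. The rate of about 1 in 20 groups flagged by chance holds for normally distributed values. CPM were not transformed for this test, so the 22 groups are not set against that rate. Double-mutant replicate 3 was that sample in 13 of them, always as the highest. Its values were 4901 CPM for Ctsb, 470.4 for Ctsc, 7164 for Ctsd, 1214 for Ctsl, 3399 for Ctss, 1661 for Ctsz, 710.5 for Cd68, 439.6 for Lgmn, 379 for Man2b1, 1.16 for Atp6v0d2, 1932 for Grn, 33.6 for Mitf and 33182 for the summed members. These 13 groups share 1 library and are not independent of each other.

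The other 9 groups involved 5 samples, each as the highest of its genotype. WT replicate 3 stood apart in Ctse (0.945 CPM) and Gaa (536 CPM), and WT replicate 5 in Lamp1 (2810 CPM), Lamp2 (424 CPM) and Atp6ap1 (882 CPM). The other WT samples of Ctse were at 0 counts, so any count in a single sample would have been flagged. Jab1 mutant 2 stood apart in Cd63 (1144 CPM) and Scarb2 (203 CPM), Jab1 mutant 3 in Atp6v0d2 (0.371 CPM) and double-mutant replicate 1 in Ctsk (98.2 CPM).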

How the results depend on the processing

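Most values kept their direction and their side of the threshold under the alternatives, with 532 of 576 doing so in Jab1 mutants against WT, 527 of 576 in double mutants against WT and 551 of 576 in double mutants against Jab1 mutants. Members that stayed uncalled counted as kept, also where DESeq2 gave no adjusted p. In Jab1 mutants against WT, 22 values of the 6 called members lost the call and 8 values of other members gained it. In double mutants against Jab1 mutants no member was called under any setting, so only the direction could change. For the values below that changed, the cause was not tested. Shares of all genes called are given for the main edgeR fits and DESeq2 only. Counts called under the other settings are therefore not read as results about the members. In Jab1 mutants against WT, the joint fit of 12 samples called 1 member and 3 pathway genes higher. Without a filter 3 members were called higher and 1 pathway gene lower. DESeq2 called 3 members and 14 pathway genes lower (8.33% and 12.3%, against 5.66% of all genes), and limma-voom 3 and 6. Leaving out single samples gave 3 to 5 members called higher, 1 to 2 called lower and 1 to 6 pathway genes called lower. In double mutants against WT, DESeq2 called 4 members and 1 pathway gene higher, the joint fit 2 and 2, and the stricter filter 2 and 1. Leaving out single samples gave 0 to 3 members and 0 to 2 pathway genes called higher. In double mutants against Jab1 mutants, DESeq2 called 1 pathway gene lower (Tcirg1).

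With the replicate number as a block, Jab1 mutants against WT had 3 members called higher, 0 called lower and 1 pathway gene called lower. Same-numbered samples of different genotypes did not deviate together (8 pairs, correlations of -0.19 to 0.08), so the numbers were not taken as pairs. Under the block the log2 fold change turned sign for Asah1 (0.03) and Tfe3 (-0.48) in Jab1 mutants against WT, Atp6v0d1 (0.02) in double mutants against WT, and Ctsh (-0.51) and Ctsk (-0.16) in double mutants against Jab1 mutants.

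Other log2 fold changes that turned sign belong to members that edgeR did not call in that comparison. In Jab1 mutants against WT these were Cd63 with limma-voom (-0.02), Npc2 with the stricter filter (0.01) and Tfe3 without a filter (-0.08). In double mutants against WT, Atp6v0d1 was at 0.03 with DESeq2, RLE factors and the stricter filter, 0.02 with upper-quartile factors, and 0.01 with the joint fit and limma-voom, and limma-voom also gave -0.30 for Gla, -0.03 for Asah1, 0.55 for Psap, 0.24 for Tfeb and -0.01 for Mitf. In double mutants against Jab1 mutants, limma-voom gave -0.01 for Ctsc, -0.13 for Ctsh and -0.28 for Ctsk. Without single samples, log2 fold changes in Jab1 mutants against WT were 1.29 to 1.93 for Ctsc, 1.01 to 1.22 for Ctsd, -1.51 to -0.76 for Lamp1, -0.27 to 0.06 for Npc2, -0.40 to 0.50 for Tfe3, 0.00 to 0.27 for Cd63 and -0.69 to 0.03 for Ctsk. For double mutants against WT they were -0.17 to 0.17 for Atp6v0d1, -0.67 to 0.24 for Gaa, -0.45 to 0.33 for Gla, -0.34 to 0.12 for Smpd1, -0.44 to 0.53 for Psap, -0.27 to 0.13 for Tfeb, -1.51 to 0.12 for Ctsk, 1.21 to 3.29 for Ctsc, 3.30 to 6.16 for Ctss, 3.01 to 5.97 for Cd68, -0.08 to 0.34 for Scarb2, -0.01 to 0.39 for Lamp2, -0.40 to 1.09 for Lgmn, -0.17 to 0.86 for Glb1, -0.20 to 0.38 for Asah1, -0.17 to 0.24 for Tpp1, -0.54 to 0.75 for Mitf and -0.20 to 0.03 for Ppt1. For double mutants against Jab1 mutants they were -0.70 to 0.33 for Glb1, -1.08 to 0.44 for Ctsk, -1.18 to 0.10 for Mitf, -0.45 to 1.62 for Ctsc, -0.21 to 1.59 for Ctsd, -0.05 to 1.38 for Ctsh, -0.17 to 0.93 for Ctsl, -0.80 to 1.97 for Ctss, -0.27 to 1.31 for Ctsz, -0.92 to 2.06 for Cd68, -0.03 to 0.87 for Gla, -0.32 to 0.74 for Gusb, -0.06 to 0.51 for Asah1 and -0.14 to 1.54 for Grn. Depth did not limit these values except for Ctse and Atp6v0d2, which were not tested.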
